A study of Drosophila melanogaster with 4 samples.

Results

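Long noncoding RNAs recovered with the poly(A)-binding protein (PABP) were compared with those of the total extract in adult Drosophila melanogaster. The members were chosen by name and by summed counts: gene rows whose name starts with lncRNA: and whose raw counts over all 4 libraries add up to at least 100. This rule took 63 of 1917 long noncoding RNA rows, out of 17806 named gene rows in all. Of the other rows, 875 had 0 counts in every library and 979 had at least 1 count but fewer than 100. By the deposited row names, 7 of the members carry a name other than a CR number: Hsromega, roX1, roX2, flam, let7C, dntRL and alphagamma-element:CR32865. All 63 are annotated as lncRNA in the RefSeq gene table, which names CR31451 mimi.

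The libraries fall into 2 groups of 2. The PABP IP libraries hold RNA that came down with PABP on FLAG beads, and the labels give their cell type as intestinal progenitor cells. The input libraries hold RNA taken from the total extract before precipitation, and the labels give all cells. Each sample was made from 200 ground adult flies, 100 of each sex, treated with ultraviolet light to crosslink RNA and bound proteins. The source of both groups is the whole animal, so every tissue of both sexes was present in the lysate. The sources used here do not give the flies' genotype, their age or the driver of the tagged protein.

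Long noncoding RNAs are transcripts without a known protein product. Many are made by RNA polymerase II and carry a cap and a poly(A) tail like mRNAs, while others are kept in the nucleus, cut into small RNAs or left without a stable tail. The cytoplasmic PABP coats poly(A) tails and is known for its roles in translation and mRNA stability. Among the members, roX1 and roX2 are RNA parts of the complex that raises transcription of the male X chromosome, and Hsromega is a stress-induced RNA. The RNA flam is the precursor of small RNAs that silence transposons, and let7C is a microRNA precursor.

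Total counts ranged from 2464629 to 10761349 per library, and the IP libraries were the deeper. The fixed markers of intestinal progenitors, such as esg and Sox21a, were higher in the IP in 6 of 6 cases (median log2 fold change 7.41). Those of enterocytes were lower in 6 of 6 cases, of muscle in 5 of 5 and of the testis in 6 of 8 tested. Of the female germline markers 5 of 6 were lower, and of the neuronal ones 3 of 5 tested. Called higher were mia of the testis (log2 1.80), grk of the female germline (1.15) and Snap25 of neurons (1.78). Of the enteroendocrine markers 2 were higher and 1 lower of 5. Over all genes tested 37.1% were higher and 38.8% lower. With any 1 library left out only 1 enteroendocrine marker was higher, and without input 2 none was lower. The part of these other cell types in the results on long noncoding RNAs was not tested. Nothing in the labels tells whether replicates were separate fly collections. The p-values therefore reflect the spread between these libraries alone, which may be technical. In such bulk samples fewer cells of a type and less RNA per cell cannot be told apart, nor can expression in progenitors, binding by PABP and background on the beads, since there was no control precipitation.

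Most of the 63 long noncoding RNAs differed between the groups, and more were higher in the IP than lower. In edgeR's quasi-likelihood test, adjusted over 9989 genes by the Benjamini-Hochberg method, 35 were higher, 19 were lower and 9 did not pass an adjusted p of 0.05. Of all genes tested, 37.1% were higher and 38.8% lower, 75.9% being called in either direction. The median log2 fold change of the members was 0.96, and that of all genes tested was -0.10. For genes of every kind with a summed count of at least 100 the median was 0.13, with 43.5% higher and 35.4% lower. The fitted changes ran from -3.14 to 8.87, and 31 of the 35 rises and 14 of the 19 falls exceeded 2-fold. The levels of the groups, in CPM (counts scaled to a common library size with TMM factors), did not overlap for 59 of the 63, against 88.6% of all genes tested. The plot of fitted changes shows a wider spread above 0 than below it. Genes of every kind with that summed count did so too, running from -4.20 to 9.73.

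**Figure D1:**
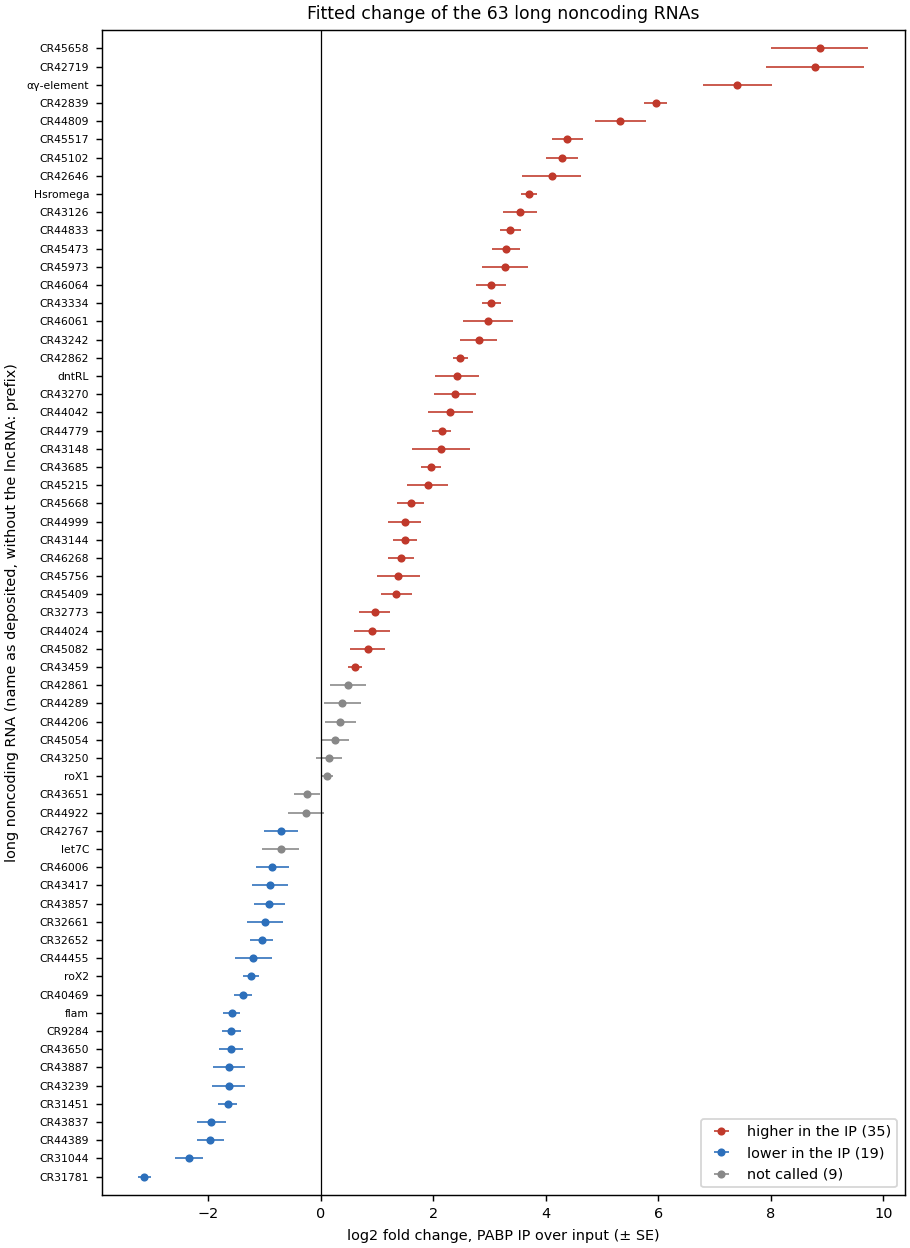
Fitted log2 fold change of each of the 63 long noncoding RNAs, PABP IP over input, with its standard error (bars; 2 libraries a group). Red points (35) were higher in the IP, blue points (19) lower, and grey points (9) not called; the values run from -3.14 for CR31781 to 8.87 for CR45658, whose input counts were 0.

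The rule used the same counts as the comparison, so the counts of rises and falls are given as a description. The IP libraries are deeper, so an RNA that is high in the IP reaches the threshold sooner, and the split that follows is fixed in part by the rule. The IP counts alone reached 100 for 32 members, of which 30 were higher in the IP and none lower. The input counts alone reached it for 4 members, all lower in the IP. For 15 members either group alone was enough, with 3 higher and 9 lower, and for 12 neither was, with 2 higher and 6 lower. All 63 passed the filter on low counts, 6 of them through the IP libraries only. With members taken by their mean CPM in place of summed counts, so that each library weighed the same, 61 rows were left, 59 of them shared, and 31 were higher and 19 lower (median 0.61). Just inside the threshold stood CR44455, CR45756 and CR43417, with 100, 101 and 104 counts and log2 fold changes of -1.20, 1.38 and -0.91. Just outside it stood CR43912, CR44442 and CR45115, with 97, 97 and 96 counts and changes of -0.22, 1.90 and -0.31.

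**Figure D2:**
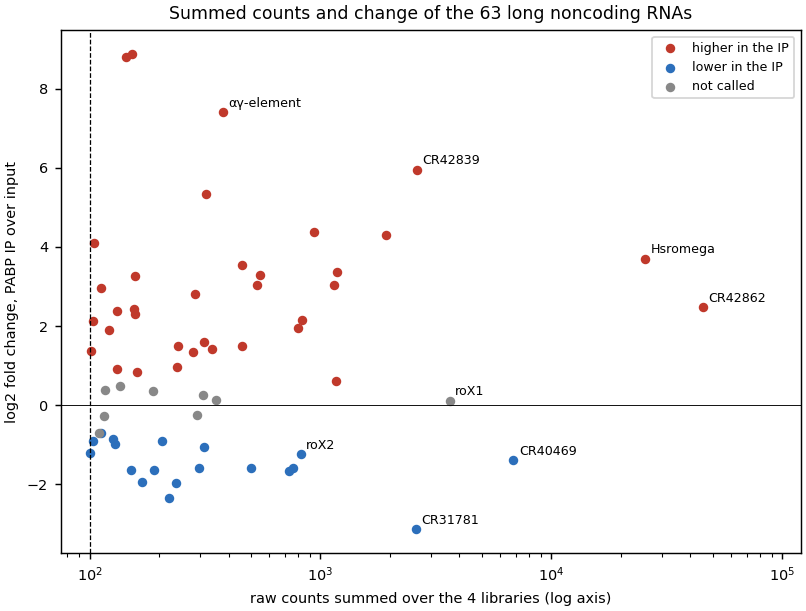
Raw counts summed over the 4 libraries (horizontal, log axis) against the log2 fold change of PABP IP over input (vertical) for the 63 long noncoding RNAs, coloured by the call. The dashed line marks the threshold of 100 counts; CR42862 and Hsromega stand far to the right, and the members near the threshold lie on both sides of 0.

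A pair of RNAs made up most of the long noncoding counts in the IP. The members together made up 0.440% and 0.472% of PABP IP 1 and 2 by counts, and 0.316% and 0.278% in input 1 and 2. CR42862 and Hsromega together held 74.4% and 71.8% of the members' counts in PABP IP 1 and 2, but 26.9% and 30.4% in input 1 and 2. The other 61 accounted for 0.123% ± 0.0145 of all IP counts and 0.212% ± 0.0265 of all input counts (SD over 2 libraries). All these are shares of raw counts, without the TMM factors used for the fold changes. Those factors were 0.760 and 0.728 for PABP IP 1 and 2, and 1.33 and 1.36 for input 1 and 2. They raise IP levels against input levels, so the raw shares cannot be read as fold changes. With 2 libraries against 2 an exact permutation test cannot go below p = 0.333, so these shares were not tested.

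Hsromega, which the cell makes in quantity after heat shock and which gathers RNA-binding proteins into nuclear bodies called omega speckles, was 13.0-fold higher in the IP. Its level was 1586 and 1749 CPM in PABP IP 1 and 2, and 136 and 121 CPM in input 1 and 2. Both IP libraries stood above both input libraries (log2 fold change 3.70 ± 0.14 SE, edgeR adjusted p = 3.58e-13). The change stayed between 2.85 and 3.81 under every other scaling, filter, tool and left-out library tried. Its annotated span overlaps only the microRNA gene mir-4951. The nearest protein-coding gene, CG16791, had a log2 fold change of 3.73 ± 0.12 SE.

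Genes for proteins of the omega speckles were higher as well, in 10 of 10 cases (median log2 fold change 1.40), against 37.1% of all genes tested. Those with the lowest p were the hnRNP genes sqd (3.57 ± 0.19 SE), Hrb27C (3.30 ± 0.17 SE), Hrb87F (2.29 ± 0.13 SE) and Hrb98DE (2.17 ± 0.13 SE). The level of sqd was 4662 and 6346 CPM in PABP IP 1 and 2, and 509 and 421 CPM in input 1 and 2. The smallest change was that of TBPH (1.08 ± 0.13 SE), the fly counterpart of TDP-43.

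The alphagamma-element RNA, transcribed from repeats near the Hsp70 genes and known to appear after heat shock, was nearly absent from the input. PABP IP 1 and 2 held 129 and 249 counts, and input 1 and 2 held 1 and 0. Both IP libraries stood far above both inputs. The ratio of summed scaled counts was 201, with an exact 95% interval of 35.9 to 7972 that covers counting error only. Its nearest protein-coding gene, Hsp70Ba, had a log2 fold change of 4.60 ± 0.33 SE; the Hsp70 copies are near-identical, so their values are uncertain one by one. Of 10 heat shock genes 9 were tested, and 8 were higher in the IP (median 2.14), against 37.1% of all genes tested. Hsp23, a small chaperone gene, had 1243 and 1181 CPM in PABP IP 1 and 2 against 18.9 and 19.9 CPM in input 1 and 2 (log2 5.96 ± 0.15 SE). The other low p-values were those of Hsp68 (4.44), the co-chaperone gene stv (2.45) and DnaJ-1 (2.14). The gene of the heat shock transcription factor, Hsf, had the smallest rise (0.45 ± 0.10 SE). With library size alone 6 heat shock genes were higher and 1 lower, and 9 omega speckle genes were higher.

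Of the dosage compensation RNAs roX2 was called lower and roX1 was not called. The level of roX1 was 150 and 180 CPM in PABP IP 1 and 2, and 157 and 149 CPM in input 1 and 2. The groups overlapped and the difference did not pass the test (log2 fold change 0.11 ± 0.11 SE, edgeR adjusted p = 0.353). The level of roX2 was 21.7 and 27.6 CPM in PABP IP 1 and 2, and 59.2 and 57.8 CPM in input 1 and 2. Both IP libraries were below both input libraries, and roX2 fell by 1.24 ± 0.14 SE on the log2 scale (edgeR adjusted p = 4.94e-07). The gap between the changes of roX1 and roX2 was not itself tested. The sign for roX1 depended on the scaling: it was lower in the IP under the authors' size factors (-0.38, edgeR adjusted p = 0.0044), under upper-quartile scaling (-0.50, adjusted p = 0.000592) and under library size alone (-0.74, adjusted p = 6.75e-07). Without PABP IP 2 it was -0.035 and not called. The span of roX1 overlaps the protein-coding gene ec (-0.78 ± 0.21 SE), whereas roX2 overlaps no annotated gene.

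Genes of the protein partners of the roX RNAs were mostly higher. Of 6 genes of the dosage compensation complex 4 were higher and 1 lower (median 1.71). Of all genes tested 37.1% were higher and 38.8% lower. The rises were those of msl-2, whose protein is made in males (2.64 ± 0.14 SE), the zinc finger gene Clamp (2.32 ± 0.11 SE), the helicase gene mle (1.84 ± 0.11 SE) and msl-1 (1.58 ± 0.11 SE). msl-3 fell by 0.56 ± 0.15 SE, a call not kept in DESeq2, and the acetyltransferase gene mof did not pass (0.13 ± 0.12 SE, edgeR adjusted p = 0.322). Under upper-quartile scaling, under library size alone and under the authors' factors 2 of the 6 were lower.

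**Figure D3:**
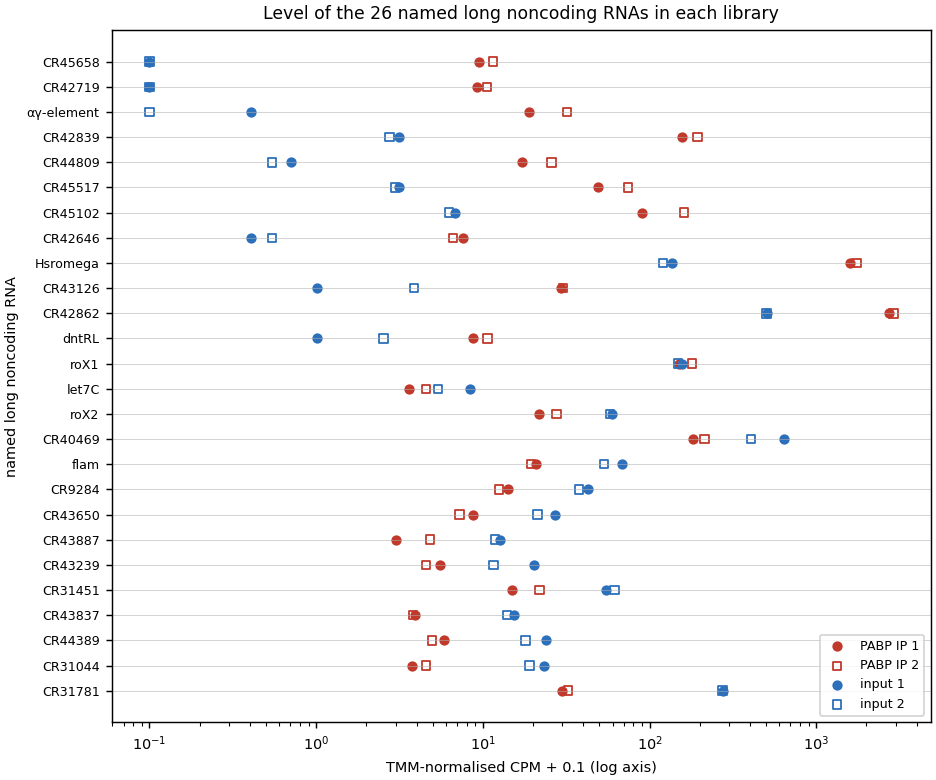
TMM-normalised CPM plus 0.1 (log axis) of the 26 long noncoding RNAs named by rule, in each library; red marks are PABP IP 1 (filled) and 2 (open), blue marks input 1 (filled) and 2 (open). The rows are ordered by fitted change, and only roX1 has red and blue marks that overlap; marks at 0.1 stand for 0 counts.

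The precursor of transposon-silencing small RNAs was lower in the IP. flam, the flamenco locus that is active in the somatic cells around the germline, had 20.6 and 19.4 CPM in PABP IP 1 and 2, and 68.1 and 53.2 CPM in input 1 and 2. Both IP libraries stood below both input libraries, and flam fell by 1.59 ± 0.15 SE on the log2 scale (edgeR adjusted p = 3.84e-08). Its deposited length, 158841 bases, is among the longest of the members. The neighbouring gene DIP1 changed the other way (2.44 ± 0.11 SE). The remaining named RNA with a rise, dntRL, had 8.64 and 10.6 CPM in PABP IP 1 and 2, and 0.916 and 2.43 CPM in input 1 and 2 (log2 2.42 ± 0.39 SE). Its input counts were 3 and 11, and without input 2 the value was 3.36.

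Long noncoding RNAs that overlap a microRNA gene moved in both directions. This grouping was made after the values were seen. Such RNAs are commonly precursors that are cut in the nucleus before the small RNA is exported. They were 12 of the 63 members and overlap 16 microRNA genes, of which 15 have a row of their own, all with 0 counts in every library. How reads over overlapping genes were assigned is not given, so these zeros do not tell whether the microRNAs were present. Of the 12, 4 were higher, 5 lower and 3 not called (median log2 fold change -0.48). These shares, 33.3% higher and 41.7% lower, lie near those of all genes tested (37.1% and 38.8%).

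CR43334, which overlaps bantam, a microRNA that promotes growth and blocks cell death, was 8.16-fold higher in the IP. It had 67.5 and 78.8 CPM in PABP IP 1 and 2, and 8.55 and 9.27 CPM in input 1 and 2. The groups stood apart (log2 3.03 ± 0.17 SE, edgeR adjusted p = 3.16e-11). Besides Hsromega, the other rises in this group were those of CR43270, at mir-958 (2.38 ± 0.37 SE), and CR43459, at mir-277 and mir-34. CR43459 had 56.1 and 62.2 CPM in PABP IP 1 and 2, and 42.1 and 36.2 CPM in input 1 and 2 (log2 0.61 ± 0.13 SE). That last rise lost its call under upper-quartile scaling (-0.0058), under library size alone (-0.25) and under the authors' factors (0.11).

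The largest fall of a microRNA precursor was that of CR31044, at mir-279 and mir-996. It had 3.66 and 4.47 CPM in PABP IP 1 and 2, and 23.2 and 19.0 CPM in input 1 and 2 (log2 -2.35 ± 0.25 SE, edgeR adjusted p = 1.6e-07). CR43650, at mir-8, the fly member of the miR-200 family, had 8.64 and 7.15 CPM in PABP IP 1 and 2, and 26.9 and 21.2 CPM in input 1 and 2. It fell by 1.59 ± 0.22 SE on the log2 scale. CR31451, at mir-9381, had 14.8 and 21.8 CPM in the IP libraries and 54.6 and 61.4 CPM in the input libraries (log2 -1.66 ± 0.17 SE). In all 3 the IP libraries lay below both input libraries. CR43857, at mir-275, and CR46006, at mir-276a, fell by less (-0.92 ± 0.27 and -0.86 ± 0.29 SE), and neither was called in DESeq2.

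The let-7 complex precursor let7C, which also holds mir-100 and mir-125 and acts in developmental timing, was low in all libraries. It had 3.52 and 4.47 CPM in PABP IP 1 and 2, and 8.24 and 5.30 CPM in input 1 and 2 (log2 -0.71 ± 0.33 SE, edgeR adjusted p = 0.0585). The groups did not overlap. The difference passed the test with upper-quartile factors (-1.32), library size alone (-1.57), the authors' factors (-1.21) or a stricter count filter (-0.75). It did not pass in DESeq2 (-0.64, adjusted p = 0.327) or limma-voom (-0.69). Nor did it pass with RLE factors (-0.64), no count filter (-0.65) or a replicate block (-0.71). With 1 library left out the log2 fold change ran from -0.41 (without input 1) to -1.05 (without input 2). The span of let7C overlaps the gene CG10283, whose log2 fold change was 3.17. CR43651, at mir-14, and CR44206, at mir-184, were not called (-0.25 ± 0.23 and 0.35 ± 0.27 SE). CR43651 was called lower under the authors' factors (-0.75), upper-quartile scaling (-0.86) and library size alone (-1.11).

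**Figure D4:**
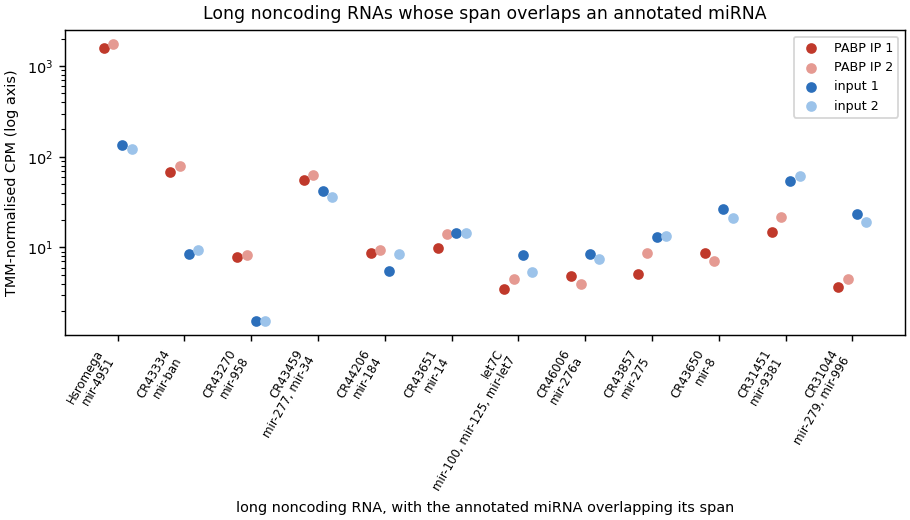
TMM-normalised CPM (log axis) in each library for the 12 long noncoding RNAs whose span overlaps an annotated microRNA, ordered by fitted change. The IP marks lie above the input marks from Hsromega to the mir-184 span, and below them from the mir-14 span to the mir-279 span. The members at mir-184 and mir-14 and let7C were not called.

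The most abundant member by CPM was CR42862, an RNA without a known role. It had 2722 and 2904 CPM in PABP IP 1 and 2, and 504 and 503 CPM in input 1 and 2. The groups stood far apart (log2 2.48 ± 0.14 SE, 5.59-fold, edgeR adjusted p = 3.01e-11). Its span overlaps the gene CG33229, whose own change did not pass (0.47 ± 0.43 SE). After CR42862 and Hsromega came CR40469, which was lower in the IP, with 182 and 214 CPM in PABP IP 1 and 2, and 638 and 406 CPM in input 1 and 2 (log2 -1.39 ± 0.16 SE). Its annotated length is only 214 bases, the shortest of the members. Per kilobase of deposited length, introns included, CR40469 reached a level of 926 CPM in the IP and 2438 in the input, CR42862 one of 410 and 73.4, and Hsromega one of 76.8 and 5.90.

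Beyond Hsromega and the alphagamma-element, 8 RNAs with CR numbers made up the largest rises, and for several of them the input was close to empty. None has a known role that could be stated here. CR45658 had 64 and 89 counts in PABP IP 1 and 2 and none in either input, which puts it at least 27.2-fold higher if the 2 inputs together are given 3 counts. CR42719 had 62 and 82 IP counts and no input count, which puts it at least 25.6-fold higher by the same measure. CR42646 had 51 counts in each IP library and 1 and 2 in the inputs, a ratio of 18.1 (exact 95% interval 6.02 to 89.3). CR44809 had 116 and 201 IP counts and 2 counts in each input (log2 5.33 ± 0.45 SE).

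Of these rises CR42839 had the smallest standard error. It had 157 and 194 CPM in PABP IP 1 and 2, and 3.05 and 2.65 CPM in input 1 and 2, a 61.9-fold difference (log2 5.95 ± 0.20 SE, edgeR adjusted p = 1.13e-13). Its nearest protein-coding gene is srp, a GATA transcription factor gene, which rose far less (0.32 ± 0.13 SE). CR45102 had 89.9 and 161 CPM in PABP IP 1 and 2, and 6.71 and 6.18 CPM in input 1 and 2 (log2 4.29 ± 0.28 SE). Next to it lies Mnt, which encodes a repressor that opposes Myc (3.73 ± 0.14 SE). CR45517 had 49.1 and 73.9 CPM in PABP IP 1 and 2, and 3.05 and 2.87 CPM in input 1 and 2 (log2 4.38 ± 0.28 SE), a rise beside a fall in its neighbour CG16756 (-0.86 ± 0.30 SE). In all 3 the IP libraries stood above both inputs, and the IP libraries also differed more from each other than the inputs did.

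CR43126 lies next to fkh, the forkhead gene of gut identity, and both were higher. The RNA had 29.4 and 30.3 CPM in PABP IP 1 and 2, and 0.916 and 3.75 CPM in input 1 and 2 (log2 3.54 ± 0.31 SE, edgeR adjusted p = 1.22e-08), from 3 and 17 input counts. Without input 2 the value was 4.98. The change of fkh was 5.65 ± 0.15 SE. CR44809 lies next to Clamp, whose rise is given with the dosage compensation genes.

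The deepest fall was that of CR31781. It had 29.9 and 32.4 CPM in PABP IP 1 and 2, and 275 and 274 CPM in input 1 and 2, an 8.80-fold difference (log2 -3.14 ± 0.11 SE, edgeR adjusted p = 1.83e-13). This was the most precise change among the named falls. The 10 largest falls also held 5 CR-numbered RNAs without a microRNA, namely CR44389 (-1.96 ± 0.24 SE), CR43837 (-1.95 ± 0.26), CR43239 (-1.64 ± 0.29), CR43887 (-1.63 ± 0.29) and CR9284 (-1.59 ± 0.17). Their highest level in any IP library was 14.1 CPM, and their lowest in any input library was 11.5 CPM. In each of the 5 both IP libraries lay below both inputs. Next to CR43837 lies the gap junction gene Inx2, which was lower too (-1.32 ± 0.11 SE).

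The other 30 members lie outside the naming rule and the microRNA group. Of these 20 were higher, from 0.83 (CR45082) to 3.37 (CR44833), 5 were lower, from -0.70 (CR42767) to -1.20 (CR44455), and 5 were not called. Over all genes tested the shares were 37.1% higher and 38.8% lower. The smallest rises were the least stable: CR45082, CR44024 and CR32773 lost their calls under upper-quartile scaling, under library size alone and under the authors' factors. CR43148 rested on 9 and 2 input counts, and its log2 fold change of 2.13 was 1.18 and not called without input 2, and 3.77 without input 1. Of the 5 falls, CR42767, CR43417, CR32661 and CR44455 were not called in DESeq2, and the first 3 of these were not called without input 1. CR42767 also lost its call with each other library left out, with RLE factors and with no count filter.

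Most called long noncoding RNAs had a called neighbour that changed in the same direction. The neighbour is the nearest protein-coding gene in the RefSeq table, and it was single for 59 members and tested for 52. Of the 42 pairs whose spans do not overlap, 33 had both genes called, 29 of them in the same direction (87.9%) and 4 in opposite directions. The other genes were paired by the same neighbour rule, and 61.0% of 3231 such pairs had the same direction. They were not matched to the members by summed count, and a pair may enter from each of its genes. The members and the other genes are therefore not compared like for like. The log2 fold changes of the 42 pairs correlated at r = 0.48 (rho = 0.53), against r = 0.22 (rho = 0.24) for the other genes. These are descriptions without a test, since genes are not independent replicates, all pairs share the same 4 libraries, and the members were chosen by their counts. Strand is not stated for the counts, so reads that run from a gene into a neighbour or its antisense partner cannot be told apart from the RNA's own.

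Among the opposite pairs were CR42719 with Reg-2 (-1.67 ± 0.22 SE), CR45517 with CG16756, and flam with DIP1. CR42719 and CR45517 were higher beside a lower gene, and flam was lower beside a higher one. Of the other named rises, CR42646 lies next to CG10417 (2.53 ± 0.14 SE) and dntRL next to CG17486 (2.09 ± 0.12 SE), both higher. Beside the falls, CG11695 next to roX2 (-0.92 ± 0.19 SE), CG32832 next to CR31781 (-1.34 ± 0.38 SE), CG44388 next to CR44389 (-1.24 ± 0.38 SE), CG34460 next to CR43650 (-2.50 ± 0.53 SE) and CG13603 next to CR31451 (-0.31 ± 0.12 SE) were lower. Not called were eEF1gamma next to CR31044 (-0.22 ± 0.13 SE), Dph1 next to CR43887 (-0.055 ± 0.12 SE) and CG17636 next to CR40469 (0.42 ± 0.35 SE). The neighbours of CR45658 (CG4328), CR9284 (tpr) and CR43239 (CG31804) did not pass the filter on low counts.

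**Figure D5:**
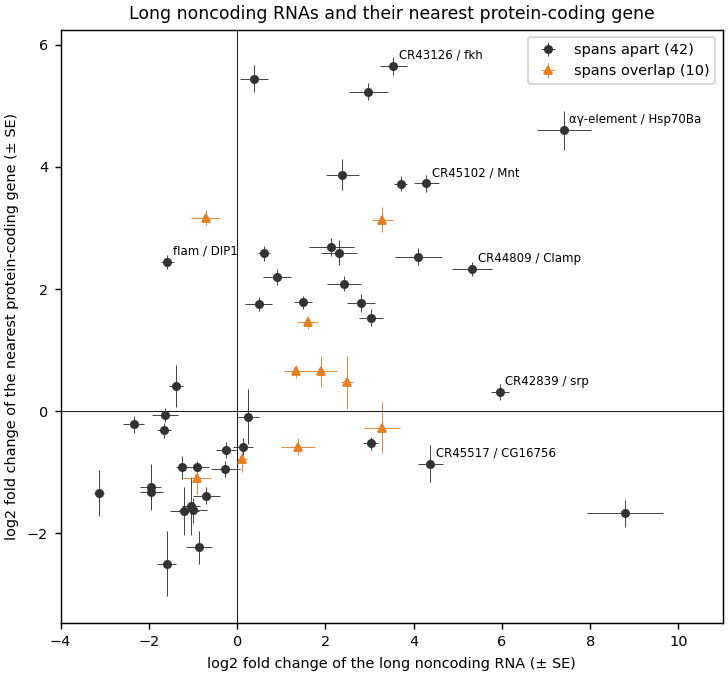
Log2 fold change (± SE) of each of the 52 long noncoding RNAs with a tested neighbour (horizontal) and of its nearest protein-coding gene (vertical); black points are pairs whose spans lie apart (42), orange triangles pairs whose spans overlap (10). Most points lie at the lower left and upper right, and CR45517 (lower right) and flam (upper left) are among the exceptions.

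The members were also grouped by what their spans overlap, with no test between the groups. The span overlaps no other annotated gene for 33 members, of which 16 were higher and 12 lower (median 0.48). It overlaps at least 1 protein-coding gene for 16 members, of which 13 were higher and 1 lower (median 1.46). The shares higher and lower were 48.5% and 36.4% for the 33, and 81.25% and 6.25% for the 16. Over all genes tested they were 37.1% and 38.8%. Over genes with a summed count of at least 100 they were 43.5% and 35.4%, near those of the 33. CR45473, which overlaps tyn, had a log2 fold change of 3.29 ± 0.24 SE, and tyn one of 3.14 ± 0.20 SE. CR45973 (3.28 ± 0.41 SE) differed from the gene it overlaps, CG13248 (-0.27 ± 0.42 SE). CR45756 (1.38 ± 0.39 SE) overlaps the insulin-like peptide gene Ilp8, which was lower (-0.58 ± 0.14 SE). The rise of CR45756 was not called without input 2 (0.89), under upper-quartile scaling (0.77) or under library size alone (0.53). Where spans overlap, reads could have been given to either gene, so these values are uncertain. Over the 63 members, with deposited lengths of 214 to 223710 bases, log2 fold change and log2 length correlated at r = 0.01. In CR45973 the value was 3.89 without input 1, and in CR45409, which overlaps Cpsf6, it was 2.09 without input 2 against 1.34 with it.

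Genes that act on RNA 3' ends moved in both directions. Of all genes tested 37.1% were higher and 38.8% lower. Of 9 genes fixed for cleavage, polyadenylation and poly(A) binding, 8 were matched to a row by name, and hiiragi was not. Of the 8, 3 were higher and 3 lower (37.5% each, median -0.12). The rises were those of pAbp (3.34 ± 0.18 SE), whose product was precipitated, its nuclear relative Pabp2 (379 CPM in the IP and 24.4 in the input, means of 2 libraries) and su(f) (0.49 ± 0.13 SE); Cpsf160 fell by 0.95 ± 0.11 SE. Of 10 tested genes of the nuclear exosome, the enzyme complex that degrades many noncoding RNAs, 2 were higher and 4 lower (20% and 40%, median -0.05). Its nuclease gene Rrp6 rose (1.49 ± 0.10 SE) and Dis3 fell by 0.89 ± 0.12 SE, while Ski6 rose by 1.01 ± 0.16 SE and Rrp46 fell by 0.79 ± 0.20 SE. The counts moved with the processing: with library size alone 6 of the 8 and 8 of the 10 were lower, in DESeq2 1 and 1, and without input 2, 2 and 1.

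The zero point of all these changes is set by the scaling. With library size alone 28 members were higher and 25 lower, so that 52.8% of the calls were higher in place of 64.8%, and the median of all genes tested was -0.95 in place of -0.10. Over all genes tested 25.8% of the calls were then higher, in place of 48.9%. The members' median was then 0.10, against 0.96 in the main scaling. Under this and the other scalings no call on a member turned to the opposite call.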

How the data were processed

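RNA from PABP precipitates and inputs of whole flies was sequenced, with 2 libraries a group. The authors deposited raw read counts per gene. The submitters' processing notes list STAR 2.7.3a, cutadapt 2.9, featureCounts, Subread 2.0.0, DESeq2 and SAMtools 1.10; the sources used here give no order, settings, strand or build. The authors' deposited table holds each count divided by a size factor (signal), a log2 fold change, a Wald score and p-values. The copy used here has 12248 rows and none named lncRNA:, so only its size factors were used, as an alternative chosen after seeing the data.

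Counts were tested with edgeR 4.0.16 (R 4.3.3; filterByExpr minimum count 10, TMM, quasi-likelihood test, Benjamini-Hochberg threshold 0.05) over all named genes; SE is the log2 fold change divided by the square root of F. The row without a gene name held at most 0.000418% of counts and was left out. Total counts were 8987420 and 10761349 (IP) and 2464629 and 3346231 (input). Log2 CPM correlated at r = 0.992 between the IP libraries and 0.986 between the inputs, with a common biological coefficient of variation of 7.98%. Intervals and floors of 3 counts cover counting error only. The edgeR fit was tested on simulated data in which few genes changed. Such a test does not cover data where most genes differ, as here.

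Names, types, overlaps and neighbours came from the RefSeq gene table of Release 6 plus ISO1 MT, in which 63 members matched. No coordinates or sequences are given. Members and lists were chosen with earlier results of these data known. The text names every member not called by a CR number, the 10 largest rises and 10 largest falls among called members with at least 5 CPM in the higher group and groups apart, the 5 highest by CPM, the 3 nearest the threshold on each side, their nearest protein-coding genes, and up to 4 genes of lowest p of each fixed list. Other members and genes named were chosen after their values were seen. Alternatives were DESeq2 1.42.0, limma-voom 3.58.1, other scalings and filters, other memberships, a replicate block and leaving out each library.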

Additional observations from a re-analysis of the deposited data

How the results depend on the processing

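Over 13 alternatives, 26 named members gave 338 values, of which 328 kept direction and call. Of the rest, 4 (all roX1) turned sign and 6 (all let7C) kept direction and gained a call. roX1 was -0.38 with the authors' size factors, -0.74 with library size alone and -0.50 with upper-quartile factors, each time called lower. With 1 library left out it ran from -0.035 (without PABP IP 2) to 0.26 (without PABP IP 1). No called member turned to the opposite call. The members' median of 0.96 was 0.46 with the authors' size factors, 0.10 with library size alone and 0.35 with upper-quartile factors, which moved the median of all genes to -0.59, -0.95 and -0.71. Of the members' calls 57.4%, 52.8% and 56.6% were then higher, against 33.8%, 25.8% and 31.0% of the calls over all genes. With a summed count of at least 200, 22 were higher and 11 lower of 37 (median 1.42); with at least 50, 51 and 28 (median 0.85). With depth-balanced membership the median was 0.61, and among members overlapping no other gene 16 were higher and 12 lower (median 0.48). Leaving out 1 library gave 31 to 36 higher, 15 to 19 lower and medians from 0.81 to 1.19. DESeq2 called 33 higher and 13 lower. Over all genes it called 2512 lower, against 3873. With the replicate number as a block 35 were higher and 18 lower, CR42767 losing its call (-0.71, edgeR adjusted p = 0.0608). Same-numbered libraries deviated together with a correlation of -0.0897, which over 2 pairs does not settle whether they were paired. The alternatives changed the settings named, and the cause of each move was not tested. Depth limits the 7 members with under 10 input counts, whose folds carry wide counting error.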

Other observations

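Below the threshold of 100 counts, 67 long noncoding RNAs passed the filter on low counts, with a median log2 fold change of 0.09. In the IP 20 of them were higher and 21 lower (29.9% and 31.3%), against 37.1% and 38.8% of all genes tested. CR44748 had 39 and 40 counts in PABP IP 1 and 2 and none in the inputs. CR45607 had 36 and 57 IP counts and 0 and 1 input counts, and CR44458 had 31 and 50 IP counts and 1 and 0 input counts. At the other end CR45631 had 6 and 4 IP counts and 20 and 38 input counts (log2 -3.39 ± 0.43 SE), and CR43279 had 5 and 6 IP counts and 20 and 32 input counts (log2 -3.11 ± 0.41 SE). iab8, a long RNA of the bithorax complex that holds a microRNA, had 6 and 9 IP counts and 4 and 16 input counts (log2 -1.29 ± 0.53 SE, edgeR adjusted p = 0.0357). IBIN, an RNA induced by infection, had 18 and 7 IP counts and 7 and 0 input counts, and the groups overlapped (log2 0.90 ± 0.82 SE, edgeR adjusted p = 0.323). These RNAs were chosen after their values were seen.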
